A study of Mus musculus with 2 samples.

Results

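Basement membranes are thin sheets of matrix that underlie vessels and epithelia and surround pericytes, smooth muscle and nerve. A network of type IV collagen, made from α1 and α2 chains, and a network of laminin trimers, each of an α, a β and a γ chain, are tied together by nidogens and by perlecan, a heparan sulphate proteoglycan. Type XV and type XVIII collagens sit at the interface with the surrounding matrix, and the C-terminal fragment of type XVIII collagen, endostatin, is known as an inhibitor of angiogenesis.

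The genes described here are 10 of the 31053 genes in the count matrices, chosen by name. They are the type IV collagen chains Col4a1 and Col4a2, the type XV and XVIII collagens Col15a1 and Col18a1, the laminin chains Lama4 (α4), Lamb1 (β1) and Lamc1 (γ1), the nidogens Nid1 and Nid2, and Hspg2, which encodes perlecan. All 10 had UMIs in each library.

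Mouse melanoma cells of the B16F10 line were grown under the skin of hosts with and without Atf4, and small tumours were profiled by droplet single-cell RNA sequencing. The WT library came from Atf4wt/wt hosts and the KO library from Atf4D/D hosts, on a C57BL/6 background, aged 11 weeks, and each library pooled 2 tumours, with both sexes named on its label. Per the study's methods, hosts of both genotypes carried the ubiquitous Rosa26::CreERT2 transgene and received tamoxifen by gavage, and the KO hosts had floxed Atf4. The injected melanoma cells kept their own Atf4, so the genotype concerns host cells only.

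With a single library for each genotype, differences between genotypes have no replicate check and no p-value is given. Levels are UMIs summed over the cells of a class and divided by all UMIs of that class, scaled to 1000000 UMIs (CPM). All intervals are at 95% and cover counting error only, not the difference between mice. Those of levels and ratios do not cover the spread between cells either. With a 3' kit, in which a transcript gives UMIs from its end only, CPM can be compared between genes as transcripts rather than per length, subject to how well each 3' end was captured, which is unknown.

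The WT library held 38417113 UMIs over 6304 barcodes and the KO library 38290024 over 5474, of which 10 barcodes were found in both. After filtering, 3861 WT and 3557 KO cells remained, with a median of 3920 and 6279 UMIs per cell. Within classes the medians were closer, at 1833 and 1830.5 UMIs in myeloid cells, 3739.5 and 3863 in fibroblasts and 11296.5 and 10645 in melanoma cells. Cells were assigned by counting distinct markers out of 10 per class, and none of the 10 basement membrane genes was a marker. This gave 68 WT and 22 KO endothelial cells, 8 and 10 pericytes, 174 and 201 fibroblasts, 1410 and 982 myeloid cells, and 1714 and 1924 melanoma cells. Endothelial cells were 1.76% of WT cells (1.37 to 2.23) and 0.618% of KO cells (0.388 to 0.935). A further 472 WT and 409 KO cells were in no class, and 15 WT and 9 KO T/NK cells were not analysed here. Rgs5, a defining pericyte gene, had UMIs in 3 of 8 WT and 7 of 10 KO pericytes and in 0 cells of the fibroblast class in either library. More of its UMIs, 118 in WT and 60 in KO, lay in 12 and 7 cells of no class, which carried on average 5.75 and 6.71 endothelial markers beside 5.75 and 6.57 pericyte markers.

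Atf4, the deleted gene, measured 252 CPM in WT fibroblasts against 43.9 CPM in KO fibroblasts, and 194 CPM in WT endothelial cells against 0 UMIs in KO ones. In melanoma cells it was at 227 and 212 CPM. The libraries stood apart in the sex of the host cells. Y-linked transcripts (Uty, Kdm5d, Ddx3y and Eif2s3y) had 0 UMIs in every WT class and 63 UMIs in KO fibroblasts, 160 in KO myeloid cells and 8 in KO endothelial cells, although each label names both sexes. Genotype and sex were therefore partly confounded in host cells. Main results on the 10 genes in fibroblasts and endothelial cells are given also for Xist+ cells, defined by an Xist UMI together with 0 Y-linked UMIs. They are set beside Y+ cells, which have a Y-linked UMI and lack Xist.

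Col4a1 and Col4a2 lie head to head on chromosome 8 (GRCm38), Col4a1 on the minus strand from 11198423 to 11312826 and Col4a2 on the plus strand from 11312805 to 11449287. Their annotated start sites, the same in RefSeq and GENCODE, overlap by 22 bases. This shared stretch is shown because the pair had like differences in fibroblasts, described below. On the plus strand of GRCm38.p6, with the 22 bases between and including the start sites in capitals, it reads as follows.
Col4a1 and Col4a2, chr8:11312801-11312830: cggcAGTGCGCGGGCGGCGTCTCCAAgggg
The nearest CCAAT box, in capitals, lay 32 bases before the Col4a2 start site.
Col4a1 and Col4a2, chr8:11312760-11312789: cccgaggagctccCCAATttgttggcgctg

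RefSeq promoter windows were found for 7 of the 10 genes, in 8 entries, and the 250 bases before each RefSeq start site were searched on both strands. The letters CCAAT were present in the windows of Col4a1, Col4a2, Lamb1, Nid1 and 1 of the 2 Col18a1 entries, and in 33.8% of all 32851 promoters of that length. The GC box GGGCGG was present for Col4a2, the same Col18a1 entry, Lamb1, Nid1 and Hspg2, and in 32.7% of all promoters. The TATA box TATAAA (12.4% of all promoters) and the ATF4-type sequence TGATGNAA (3.45%) were in none of the 8 windows. Upstream sequence is printed for Col15a1, whose fibroblast level differed most between genotypes, and for Hspg2, whose fibroblast interval included 0. Capitals mark matches to these motifs, of which Col15a1 had 0 and Hspg2 had 5, all GC boxes that do not overlap.
Col15a1, chr4:47207762-47208011, plus strand, GRCm38.p6: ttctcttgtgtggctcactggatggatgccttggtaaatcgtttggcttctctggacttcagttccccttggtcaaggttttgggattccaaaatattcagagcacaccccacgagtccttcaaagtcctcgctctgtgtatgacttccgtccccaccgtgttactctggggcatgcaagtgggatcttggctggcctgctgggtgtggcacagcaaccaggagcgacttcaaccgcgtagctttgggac
Hspg2, chr4:137468553-137468768, plus strand, GRCm38.p6: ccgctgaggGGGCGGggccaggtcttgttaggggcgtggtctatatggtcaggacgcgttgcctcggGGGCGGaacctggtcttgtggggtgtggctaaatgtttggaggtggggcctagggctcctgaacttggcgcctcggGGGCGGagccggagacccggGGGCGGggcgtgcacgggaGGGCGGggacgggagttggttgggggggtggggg

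The first comparison asked which cells of the tumour held the transcripts of basement membrane genes. The summed level was highest in endothelial cells, pericytes and fibroblasts, at 6402, 6726 and 5141 CPM in WT, against 129 CPM in melanoma and 50.9 CPM in myeloid cells. In KO the same sums were 7524, 8916, 3252, 143 and 53.4 CPM. The stromal levels were thus far above the tumour cell level in both libraries, while the KO fibroblast sum was the lowest of the stromal ones.

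**Figure D1:**
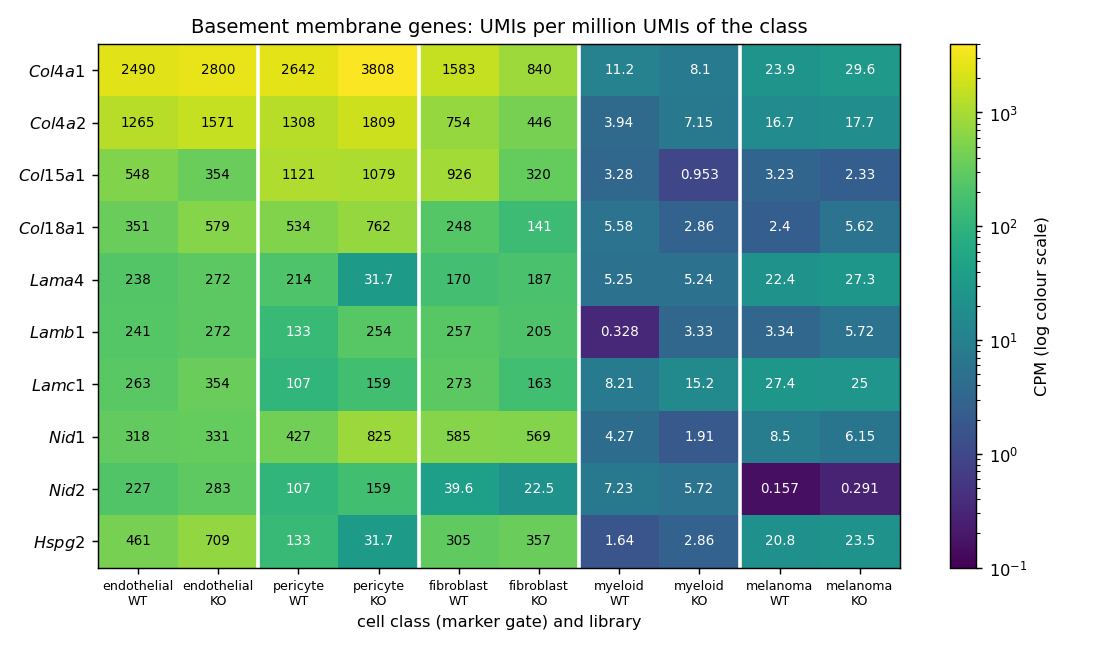
Level of each basement membrane gene (rows) in each cell class and library (columns), in CPM on a logarithmic colour scale with the value printed in each cell. Stromal classes, on the left, are above myeloid and melanoma cells for nearly all genes, with Nid2 low in fibroblasts and lowest in melanoma cells. The pericyte values rest on 8 WT and 10 KO cells.

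Type IV collagen was the most abundant of the set in stromal cells. Col4a1 measured 2490 CPM in WT endothelial cells and 2799.5 CPM in KO ones, 2642 and 3808 CPM in pericytes, 1583 and 840 CPM in fibroblasts, 23.9 and 29.6 CPM in melanoma cells and 11.2 and 8.10 CPM in myeloid cells. Col4a2, which encodes the partner chain, followed the same order from 1265 and 1571 CPM in endothelial cells to 754 and 446 CPM in fibroblasts and 16.7 and 17.7 CPM in melanoma cells. The endothelial and pericyte levels of WT did not differ beyond their intervals for either chain.

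Of the 10 genes, 9 were at least 10-fold higher in endothelial than in both melanoma and myeloid cells in WT, where 2.41% of all tested genes were. In KO it was also 9, against 1.93% of all genes. The exception was Lamc1 in WT and Lama4 in KO. In fibroblasts 7 of the 10 genes met the same rule in each library, against 3.4% of genes in WT and 3.12% in KO. Those 7 were Col4a1, Col4a2, Col15a1, Col18a1, Lamb1, Nid1 and Hspg2 in both libraries.

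Endothelial cells and fibroblasts held all 10 members, at levels that differed between the classes for some of them. Nid2, the second nidogen (chromosome 14, 19751265 to 19811787, plus strand), was at 227 CPM in WT endothelial cells and 39.6 CPM in WT fibroblasts, 5.72-fold higher in the former (3.59 to 9.35). It was the sole member at least 2-fold higher in endothelial cells than in fibroblasts of WT, where 13.3% of all genes were. Nid1 (chromosome 13, 13437551 to 13512269, plus strand) went the other way, with 318 CPM in endothelial cells and 585 CPM in fibroblasts of WT, a ratio of 0.543 (0.426 to 0.687). Col15a1 also favoured fibroblasts in WT, with an endothelial to fibroblast ratio of 0.592 (0.492 to 0.709). In neither library was a member at least 2-fold higher in fibroblasts than in endothelial cells, a rule met by 19.5% of genes in WT and 9.59% in KO.

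In KO, 5 members were at least 2-fold higher in endothelial cells than in fibroblasts, namely Col4a1, Col4a2, Col18a1, Lamc1 and Nid2, where 13.8% of all genes were. For Col4a1 the endothelial to fibroblast ratio was 1.57 in WT (1.43 to 1.73) and 3.33 in KO (2.86 to 3.87). Among Xist+ cells, of which KO had 8 endothelial, 9 members had at least 20 UMIs in KO. Of these, 1 was at least 2-fold higher in endothelial cells, Col18a1, against 12.6% of 1582 genes, and 2 were at least 2-fold higher in fibroblasts, Col15a1 and Nid1, against 10.4%. Among the 8 endothelial cells, 1 cell held 73.7% of the Col18a1 UMIs. Nid2 had too few UMIs to be counted, with 6 in endothelial cells (275 CPM) and 7 in fibroblasts (38.3 CPM).

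Melanoma cells contributed a different mixture. Lamc1 (chromosome 1, 153218922 to 153332786, minus strand) at 27.4 CPM, Col4a1 at 23.9 CPM, Lama4 at 22.4 CPM and Hspg2 at 20.8 CPM led in WT, while Nid2 was at 0.157 CPM from 3 UMIs. In WT, 6 members were at least 2-fold higher in melanoma than in myeloid cells, against 31.0% of genes, and in KO it was 5 of the 9 that could be tested, against 29.1%. At 2000 UMIs per cell, 22.9% of WT melanoma cells (20.8 to 25.0) held a UMI of any member, compared with 8.16% of WT myeloid cells (6.14 to 10.6). The KO shares were 26.0% and 10.1%. Myeloid cells are set beside them because they are not a known source of most of these genes.

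Myeloid levels were low for all members. The highest were 11.2 CPM for Col4a1 in WT and 15.2 CPM for Lamc1 in KO, from 34 and 32 UMIs. Thinned shares of myeloid cells with a UMI ran from 0.16% for Lamb1 and Nid1 to 2.24% for Nid2 in WT, at a median depth of 1833 UMIs before thinning. Thinning left out 785 WT and 546 KO myeloid cells below 2000 UMIs. Subtracting free RNA, estimated from the melanoma markers in myeloid cells, took Col4a1 to 1.93 CPM in WT but left Nid2 at 7.34 CPM and Col18a1 at 4.43 CPM in WT and Lamc1 at 13.9 CPM in KO. The subtraction thus removed most of the WT myeloid Col4a1 but little of the WT myeloid Nid2 or of the KO Lamc1. It takes every melanoma marker UMI in myeloid cells as free RNA with the mean composition of kept cells, which was not tested. By comparison, 98.0% of WT endothelial cells and 82.0% of WT fibroblasts held a Col4a1 UMI, with 98.5% and 89.1% without thinning, at median depths of 2758 and 3739.5 UMIs.

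Because the classes differ in size as well as in level, the class in which most UMIs of a gene lay varied. Fibroblasts held 56.5% of the Col15a1 UMIs of WT kept cells and 50.6% of those of Nid1. Melanoma cells, with low levels but large total depth, held 59.2% of Lama4, 56.6% of Lamc1 and 45.3% of Hspg2 UMIs in WT. Endothelial cells held 41.6% of Nid2 UMIs.

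Over all members, endothelial cells held 17.8% of the UMIs in WT and 8.21% in KO, fibroblasts 35.6% and 35.3%, and melanoma cells 25.1% and 38.2%. The level over all kept cells was 390 CPM in WT and 307 CPM in KO. The smaller endothelial share of these UMIs stood beside 22 endothelial cells in KO and 68 in WT. Cells of no class held 17.3% and 13.2%.

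**Figure D2:**
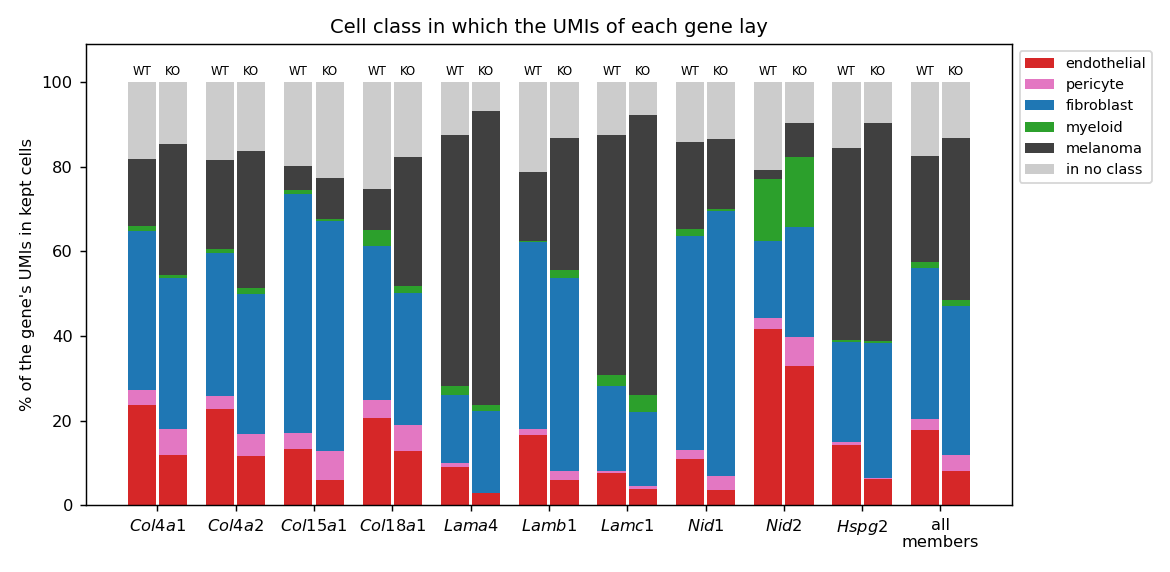
Share of each gene's UMIs (vertical axis, percent of UMIs in kept cells) that lay in each cell class, for WT (left bar) and KO (right bar). T/NK cells held under 1% and are not drawn. The endothelial part (red) is smaller in KO for all 10 genes, and the melanoma part (dark) is larger for all except Nid1.

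The second comparison asked how the genes were balanced against their partners. The Col4a1 to Col4a2 UMI ratio was 1.97 in WT endothelial cells (1.73 to 2.25), 2.02 in WT pericytes and 2.10 in WT fibroblasts (1.89 to 2.34). In KO it was 1.78, 2.11 and 1.88, and each of these 3 intervals overlapped that of WT. In melanoma cells it was lower, at 1.43 in WT (1.24 to 1.66) and 1.67 in KO (1.47 to 1.91). The protein trimer holds more α1 than α2 chains, but UMI ratios also depend on how each 3' end is captured.

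The Nid1 to Nid2 ratio separated the classes most. It was 1.4 in WT endothelial cells (1.0 to 1.98), 14.8 in WT fibroblasts (10.0 to 22.7) and 54.3 in WT melanoma cells (18.3 to 266), with 1.17, 25.3 and 21.2 in KO. The fibroblast and endothelial intervals did not overlap in either library.

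Lamb1 and Lamc1 encode chains that join the same laminin trimers. Their UMI ratio was near parity in the WT stroma, at 0.917 in endothelial cells and 0.941 in fibroblasts, but 0.122 in WT melanoma cells (0.0924 to 0.158) and 0.229 in KO melanoma cells (0.186 to 0.280). Lamb1 lies on chromosome 12, 31265234 to 31329644, plus strand. The melanoma intervals of WT and KO did not overlap.

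The Col15a1 to Col18a1 ratio was lower in KO in each class drawn. It was 3.73 in WT and 2.27 in KO fibroblasts, 1.56 and 0.612 in endothelial cells, and 1.35 and 0.414 in melanoma cells. The WT and KO intervals did not overlap in these 3 classes, whereas in pericytes, at 2.10 and 1.42, they did. In Xist+ fibroblasts, however, the ratio was 3.61 in WT (3.01 to 4.36) and 3.73 in KO (2.40 to 5.99), and in KO Y+ fibroblasts it was 1.55 (0.952 to 2.57). In Xist+ endothelial cells it was 1.64 in WT and 0.211 in KO, the latter from 4 and 19 UMIs. There 1 cell held all 4 UMIs of Col15a1 and 1 cell held 73.7% of those of Col18a1.

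**Figure D3:**
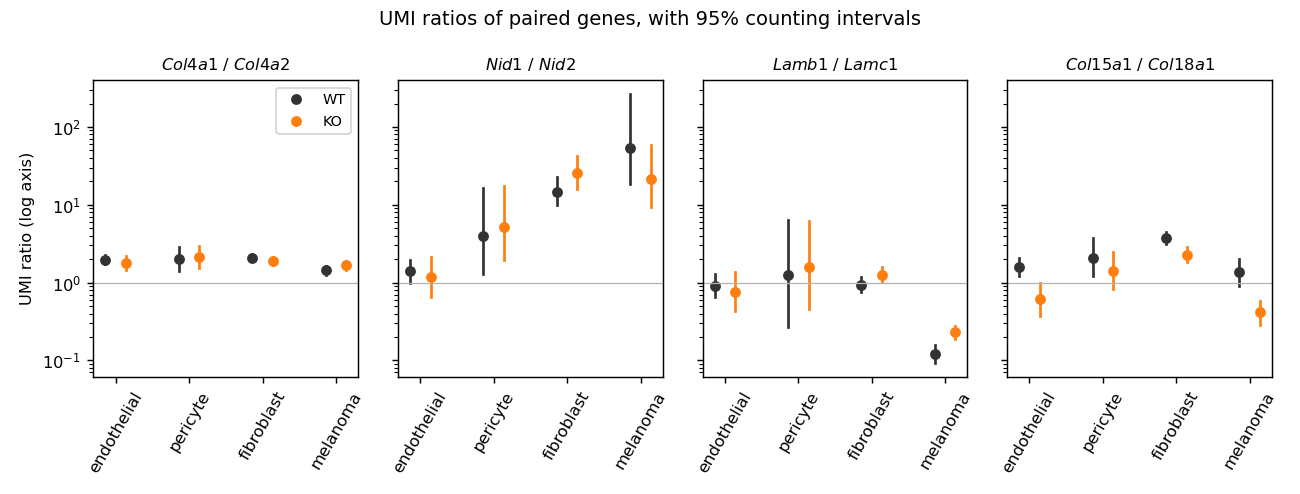
UMI ratio of paired genes (vertical axis, logarithmic) by cell class, with WT in black and KO in orange. Bars are exact 95% counting intervals and the grey line marks parity. Col4a1 to Col4a2 stays close to 2 in the stroma, Nid1 to Nid2 spreads from near 1 in endothelial cells to over 10 in fibroblasts, and Col15a1 to Col18a1 is lower in KO in each class taken as a whole.

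The third comparison, between host genotypes, asked whether basement membrane genes differed with loss of host Atf4. In fibroblasts the summed level of the 10 genes was 5141 CPM in WT (3504 UMIs) and 3252 CPM in KO (2741 UMIs), and the log2 KO/WT ratio was -0.66 (-0.73 to -0.59). The intervals of all 4 collagens and of Lamb1 and Lamc1 lay below 0, and those of Nid1 and Hspg2 included 0. Between the Xist+ fibroblasts of the libraries, however, the summed ratio was -0.035 (-0.14 to 0.072), as set out below.

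Among the network-forming collagens, Col4a1 measured 1583 CPM in WT fibroblasts (1079 UMIs) and 840 CPM in KO (708 UMIs), and its log2 ratio was -0.91 (-1.05 to -0.78). For Col4a2, at 754 and 446 CPM, it was -0.76 (-0.95 to -0.56). At 2000 UMIs per cell, 82.0% of WT fibroblasts (74.9 to 87.8) and 59.2% of KO fibroblasts (51.6 to 66.5) held a Col4a1 UMI, leaving out 24 and 22 cells. The intervals of these shares did not overlap, but cells are not replicates of a genotype and the intervals do not cover the difference between mice.

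Of the interface collagens, Col15a1 (chromosome 4, 47208161 to 47313167, plus strand) measured 926 CPM in WT fibroblasts and 320 CPM in KO ones, and its log2 ratio was -1.53 (-1.74 to -1.32). The shares of cells with a UMI at equal depth were 70.7% (62.7 to 77.8) and 32.4% (25.6 to 39.8). Col18a1 (chromosome 10, 77052178 to 77166548, minus strand) was at 248 and 141 CPM, with -0.81 (-1.16 to -0.47). Col15a1 was the sole member at least 2-fold lower in KO, where 6.19% of the 6979 fibroblast genes with at least 20 UMIs were, and 0 members were at least 2-fold higher, against 5.56% of genes.

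Of the laminin chains, Lamc1 measured 273 CPM in WT fibroblasts and 163 CPM in KO ones, for a log2 ratio of -0.75 (-1.08 to -0.42). Lamb1, at 257 and 205 CPM, had -0.32 (-0.63 to -0.01). Lama4 (chromosome 10, 38965515 to 39110188, plus strand), an α chain of vessel laminins, was at 170 and 187 CPM with 0.14 (-0.22 to 0.50). The intervals of Lama4 and Lamc1 did not overlap. Nid1, at 585 and 569 CPM, had -0.040 (-0.23 to 0.16), and Hspg2 (chromosome 4, 137468769 to 137570630, plus strand), at 305 and 357 CPM, had 0.23 (-0.03 to 0.49). The few UMIs of Nid2, 27 and 19, gave -0.81 (-1.74 to 0.09). The median log2 ratio was -0.75 over the 10 members and -0.044 over all 6979 genes, and 8 members were below 0.

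**Figure D4:**
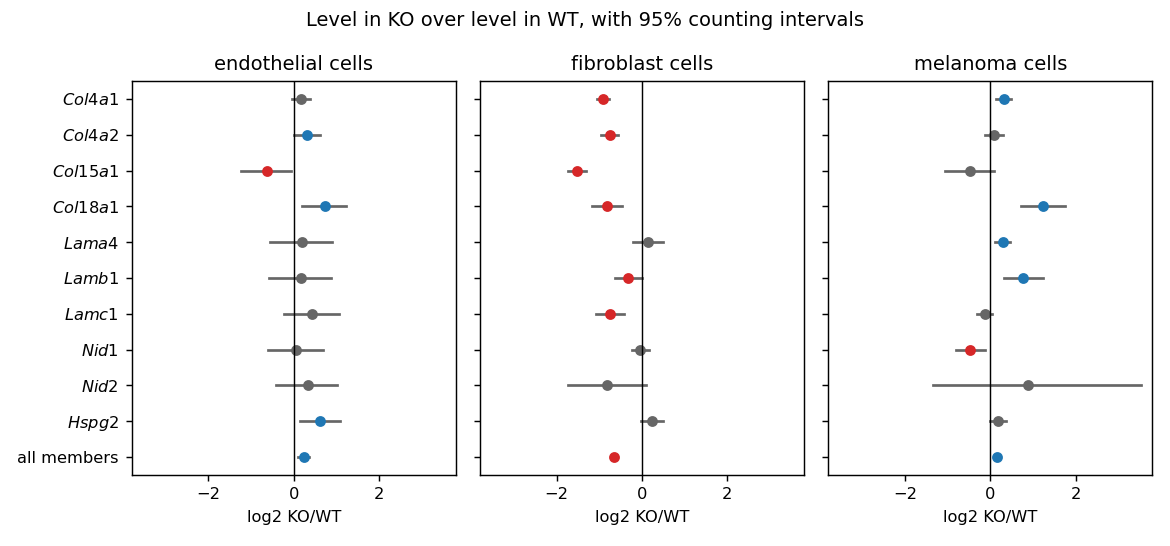
log2 ratio of the KO level over the WT level (horizontal axis) for each gene and for all members summed, in endothelial, fibroblast and melanoma cells. Bars are exact conditional 95% counting intervals, with red points where the interval lies below 0 and blue points where it lies above. In fibroblasts the collagens and Lamc1 are below 0 and Nid1, Lama4 and Hspg2 are at or near it, while Col18a1 is below 0 in fibroblasts and above 0 in endothelial and melanoma cells.

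KO fibroblasts were a mixture by these markers. Of the 201 cells, 54 were Xist+, 43 were Y+ and 104 had neither kind of UMI. Of the 174 WT cells, 141 were Xist+, 33 had neither and 0 were Y+. Median depth was 3747 UMIs in the WT Xist+ cells, 3086.5 in the KO Xist+ cells and 4886 in the KO Y+ cells. These sets held on average 6.5, 5.85 and 6.37 fibroblast markers per cell. Atf4 was at 247, 10.9 and 41.5 CPM in them, from 142, 2 and 10 UMIs.

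Col4a1 was at 1576 CPM in WT Xist+ fibroblasts (1475 to 1682), 1816 CPM in KO Xist+ fibroblasts (1626 to 2022) and 319 CPM in KO Y+ fibroblasts (252 to 399). Col4a2 followed it, at 757, 913 and 162 CPM. For both chains the KO Xist+ cells were at or above WT, and the interval of the KO Y+ cells lay below both. The KO cells with neither lay between, at 713 CPM for Col4a1 and 406 CPM for Col4a2.

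Between KO Y+ and KO Xist+ fibroblasts, the log2 ratio of Col4a1 was -2.51 (-2.88 to -2.15) and that of Col4a2 -2.50 (-3.04 to -1.99). Of the 9 members with at least 20 UMIs in these cells, 3 were at least 2-fold lower in the Y+ set, Col4a1, Col4a2 and Col15a1, against 4.96% of 3086 genes, and 0 were at least 2-fold higher, against 5.57%. The type IV chains were also at least 4-fold lower, which 1.0% of genes were. Nid1 (-0.21, -0.58 to 0.16), Lamc1 (0.10, -0.62 to 0.84) and Hspg2 (-0.052, -0.52 to 0.42) had intervals that included 0.

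At 2000 UMIs per cell, a Col4a1 UMI was found in 79.2% of WT Xist+ fibroblasts (71.0 to 85.9), 84.4% of KO Xist+ fibroblasts (70.5 to 93.5) and 26.2% of KO Y+ fibroblasts (13.9 to 42.0). For Nid1 the shares were 64.8%, 68.9% and 71.4%. The thinned shares left out 16, 9 and 1 cells. For Col4a1 the order of the sets was thus the same in shares of cells as in CPM, and for Nid1 the intervals of the sets overlapped on both scales. The cell with the most Col4a1 UMIs held 10.8% of them in the KO Xist+ set and 22.1% in the KO Y+ set, and without it the levels were 1677 and 254 CPM.

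The set difference was present on both sides of a split by markers of adventitial fibroblasts. Cells with at least 2 of Pi16, Dpp4, Cd248, Sema3c and Ly6c1, called the adventitial sub-gate, made up 40.7% of the KO Xist+ cells and 53.5% of the KO Y+ cells. In them Col4a1 was at 1708 CPM in the 22 KO Xist+ cells and 352 CPM in the 23 KO Y+ cells. In the other KO fibroblasts it was at 1892 CPM in 32 cells and 268 CPM in 20 cells.

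With sex markers matched to WT, some members still differed. Between KO and WT Xist+ fibroblasts, Col15a1 had a log2 ratio of -0.82 (-1.15 to -0.51), Col18a1 -0.87 (-1.53 to -0.26) and Lamc1 -0.69 (-1.32 to -0.11), while Col4a1 had 0.20 (0.02 to 0.39) and Col4a2 0.27 (0.004 to 0.53). Col15a1, Col18a1 and Lamc1 were thus lower in these cells too, and the direction of the type IV chains was the opposite of that in the whole class. In this comparison 0 of 10 members were at least 2-fold lower, against 11.1% of 4823 genes, and 0 were at least 2-fold higher, against 4.98%. The median over members was -0.015, beside -0.062 over all genes.

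Against the same WT cells, the KO Y+ fibroblasts had log2 ratios of -2.30 for Col4a1, -2.23 for Col4a2, -2.33 for Col15a1, -1.11 for Col18a1 and -0.59 for Lamc1. Here 5 members were at least 2-fold lower, the 4 collagens and Nid2, against 10.1% of 5060 genes, and 0 were at least 2-fold higher, against 5.49%. WT had no Y+ cells, and the labels do not say which tumour of a pool was of which sex. Sex, mouse and genotype cannot be told apart in this contrast.

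**Figure D5:**
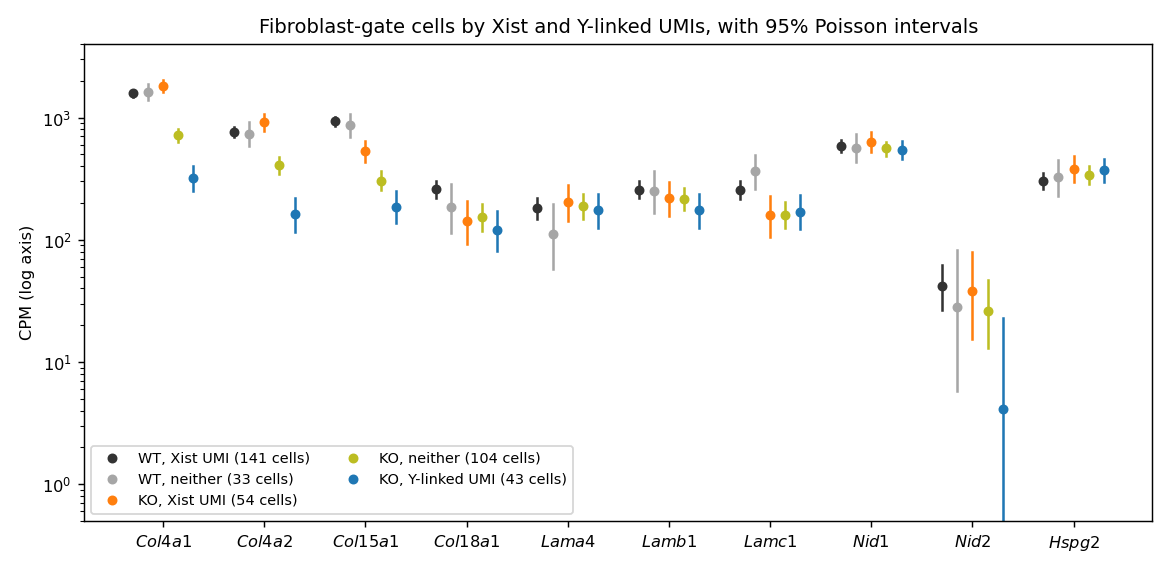
Level of each gene (vertical axis, CPM on a logarithmic scale) in fibroblasts split by Xist and Y-linked UMIs, with exact 95% Poisson intervals. Col4a1 and Col4a2 in KO Xist+ cells (orange) are at or above WT (black and grey), and in KO Y+ cells (blue) they are at 319 and 162 CPM. Col15a1 is below WT in all 3 KO sets, and Nid1 and Hspg2 have overlapping intervals in all sets.

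Without the split by sex markers, the lower Col4a1 of KO fibroblasts was more marked outside the adventitial sub-gate. In the adventitial sub-gate Col4a1 was at 1054 CPM (53 WT cells) and 844 CPM (83 KO cells), for a log2 ratio of -0.32 (-0.56 to -0.080), and in the other 121 WT and 118 KO fibroblasts at 1879 and 837 CPM, for a log2 ratio of -1.17 (-1.35 to -0.99). Col15a1 was lower in both, with -1.70 (-2.12 to -1.29) and -1.36 (-1.61 to -1.12). Among Xist+ cells, a lower Col4a1 of KO fibroblasts was seen on neither side of the sub-gate. Inside it, Col4a1 was 1086 CPM (954 to 1230) for 48 WT Xist+ cells, beside 1708 CPM (1426 to 2029) for 22 KO Xist+ cells. Outside it, Col4a1 was 1895 CPM (1753 to 2046) for 93 WT Xist+ cells, beside 1892 CPM (1641 to 2171) for 32 KO Xist+ cells.

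In endothelial cells, of which KO had 22, 9 of 10 members had a ratio above 0, beside a median of -0.0021 over all 2746 genes. The ratios of Col4a1 (0.17), Lamb1 (0.17) and Nid1 (0.056) were smaller than the TMM shift given below. Among Xist+ cells the members above 0 were Col18a1 (1.41), Nid2 (0.23) and Lamc1 (0.059). Summed over members the level was 6402 CPM in WT and 7524 CPM in KO, for a log2 ratio of 0.23 (0.10 to 0.36). With TMM scaling, which shifted all endothelial ratios by -0.19 on the log2 scale, it was 0.048, and in the 52 WT and 8 KO Xist+ cells it was -0.50 (-0.81 to -0.21). The direction of the sum thus changed with the cells used. A single KO cell held 24.1% of the Col4a1 UMIs of its class, and with the top cell of each library left out the log2 ratio of Col4a1 changed from 0.17 to -0.051. For the Xist+ cells the ratio of Col4a1 was -0.83 (-1.40 to -0.31).

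Among endothelial members, Hspg2 had 461 and 709 CPM and a log2 ratio of 0.62 (0.15 to 1.08), and Col18a1 had 351 and 579 CPM and 0.72 (0.19 to 1.23). In the Xist+ cells Hspg2 was at -0.20 and Col18a1 at 1.41. Over the whole class, Col15a1 was the sole member below 0, at 548 and 354 CPM with -0.63 (-1.25 to -0.057). Its ratio in the Xist+ cells was -1.55. At least 2-fold lower were 0 members, against 7.25% of 2746 genes, and at least 2-fold higher 0, against 5.5%. With TMM scaling the shares of all genes were 11.5% lower and 3.28% higher. The median over members was 0.25, beside -0.0021 over all genes.

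By sex markers, Col4a1 was at 1419 CPM in the 8 KO Xist+ endothelial cells (964 to 2014) and 4227 CPM in the 5 KO Y+ cells (3487 to 5078), of which the top cell held 50%. Without that cell the latter was 3000.0 CPM. The order was the opposite of that in fibroblasts.

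Pericytes were too few for single genes. The sums were 6726 CPM in WT and 8916 CPM in KO, for a log2 ratio of 0.41 (0.16 to 0.66) from 252 and 281 UMIs. Col4a1 had 0.53 (0.13 to 0.93). The gated cells carried on average 3.5 fibroblast markers in WT and 1.5 in KO, and 2.38 and 1.3 melanoma markers, and the part of other cell types in these ratios was not tested. Of the 5 members with at least 20 UMIs, 0 were at least 2-fold lower and 0 higher, against 8.6% and 5.98% of 535 genes. With no limit on fibroblast markers the gate held 14 WT and 13 KO cells and the ratio of Col4a1 was 0.64 (0.33 to 0.95).

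In melanoma cells, which keep their own Atf4, the summed ratio was 0.15 (0.076 to 0.23). Col18a1 had 46 WT and 116 KO UMIs, or 2.40 and 5.62 CPM, and its log2 ratio was 1.23 (0.72 to 1.75). Lamb1 was at 3.34 and 5.72 CPM, with 0.78 (0.32 to 1.24), Col4a1 had 0.31 (0.13 to 0.49) and Lama4 had 0.29 (0.10 to 0.47). Nid1 was lower, at 8.50 and 6.15 CPM, with -0.47 (-0.81 to -0.12). Of 9 members tested, 1 was at least 2-fold higher, Col18a1, against 3.79% of 12196 genes, and 0 were at least 2-fold lower, against 1.12%. At 2000 UMIs, 0.309% of WT (0.10 to 0.72) and 1.36% of KO melanoma cells (0.883 to 2.0) held a Col18a1 UMI, compared with 0.8% of WT myeloid cells (0.260 to 1.86) and 0.688% of KO myeloid cells (0.142 to 2.0). The WT melanoma share was below the WT myeloid one and the KO intervals overlapped, so a higher share of cells with a Col18a1 UMI in melanoma than in myeloid cells was not detectable at this depth. In WT myeloid cells, 1 cell held 5 of the 17 Col18a1 UMIs.

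In myeloid cells the summed ratio was 0.068 (-0.30 to 0.43). Of 6 members with at least 20 UMIs, 0 were at least 2-fold lower and 0 higher, against 2.58% and 2.92% of 9427 genes. Lamc1, at 8.21 and 15.2 CPM, had 0.89 (0.092 to 1.71).

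The difference between classes was itself compared, as the log2 KO/WT ratio in fibroblasts minus that in endothelial cells, with intervals for counting error. It was -1.08 for Col4a1 (-1.34 to -0.83), -1.07 for Col4a2 (-1.42 to -0.72), -1.53 for Col18a1 (-2.14 to -0.93) and -1.18 for Lamc1 (-1.87 to -0.48). It was -0.90 for Col15a1 (-1.50 to -0.30) and -1.14 for Nid2 (-2.22 to -0.05). For Nid1 it was -0.10 (-0.74 to 0.55) and for Hspg2 -0.39 (-0.91 to 0.12). For Lama4 it was -0.05 (-0.82 to 0.71) and for Lamb1 -0.49 (-1.24 to 0.25). These differences hold for the classes as a whole and inherit the mixture by sex described above. Among Xist+ cells, with 8 KO endothelial cells, the order of the type IV chains was reversed. There Col4a1 was at 0.20 in fibroblasts and -0.83 in endothelial cells, and Col4a2 at 0.27 and -1.11.

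Other genes of the pathway were taken from lists, of which those with at least 20 UMIs were counted. Beside these counts, the shares of all genes at least 2-fold lower and higher in KO were 6.19% and 5.56% in fibroblasts. They were 7.25% and 5.5% in endothelial cells and 8.6% and 5.98% in pericytes. In myeloid cells they were 2.58% and 2.92%, and in melanoma cells 1.12% and 3.79%. The list counts were not tested against these shares. Among the genes of assembly and crosslinking, 1 of 9 was at least 2-fold lower in KO fibroblasts and 0 were higher. This was Serpinh1, a chaperone of collagen folding, at 3014 CPM (WT) and 1419 CPM (KO), for a log2 ratio of -1.09 (-1.19 to -0.98). Against WT Xist+ fibroblasts it was lower in both KO sets, with -0.94 (-1.12 to -0.75) in the Xist+ cells and -1.05 (-1.22 to -0.88) in the Y+ cells. In endothelial cells it had 1367.5 and 579 CPM, with -1.24 (-1.70 to -0.81). There 2 of 6 genes of the list were lower, the other being the peroxidase Pxdn, which crosslinks type IV collagen, at 46 and 7 UMIs with -1.02 (-2.42 to 0.13).

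Of 25 other chains and components, 6 could be counted in fibroblasts, of which 2 were at least 2-fold lower and 0 higher. Smoc2, a matricellular basement membrane protein, had 66 and 14 UMIs, with -2.54 (-3.49 to -1.70), and Frem1, a component at the epithelial basement membrane, had 33 and 2, with -4.35 (-7.46 to -2.38). In WT Xist+, KO Xist+ and KO Y+ fibroblasts, Smoc2 had 60, 8 and 0 UMIs and Frem1 had 23, 0 and 0. For Smoc2 the log2 ratio of KO to WT Xist+ cells was -1.26 (-2.53 to -0.19). Receptors, among them integrins and dystroglycan, had 0 of 7 in either direction in fibroblasts, 0 of 4 in endothelial cells and 0 of 11 in melanoma cells. In pericytes 1 of 2 was higher, the integrin chain Itgb1, at 1.01 (0.23 to 1.82).

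Among 8 genes of heparan sulphate synthesis and editing counted in fibroblasts, Sulf2, an extracellular 6-O-sulphatase, was higher, at 29.3 and 68.8 CPM with 1.23 (0.47 to 2.04), and 1 was lower, Glce, an epimerase, with 13 and 8 UMIs and -1.01 (-2.48 to 0.37). In melanoma cells 2 of 9 were higher, Sulf2 at 29.7 and 74.4 CPM with 1.32 (1.18 to 1.46) and Glce at 4.28 and 8.86 CPM with 1.05 (0.67 to 1.44), and 0 were lower. Of the proteases and inhibitors, 0 of 9 in fibroblasts passed 2-fold. Against WT Xist+ fibroblasts, Timp3, a matrix-bound metalloproteinase inhibitor, was at -2.01 (-2.68 to -1.40) in KO Y+ cells and at -0.26 (-0.70 to 0.15) in KO Xist+ cells, and it was named here after its values were seen. In endothelial cells Timp3 was at 282 and 815 CPM with 1.53 (1.04 to 2.02), and the membrane protease Mmp14 had 40 and 4 UMIs with -1.63 (-3.57 to -0.16). The endothelial ratios of list genes rest on 22 KO cells and are not split by sex markers here. In pericytes Timp3 was higher and Timp1 lower, with 1.66 and -1.13, and P4hb of the assembly list was lower, with -1.22. In melanoma cells the procollagen protease Bmp1 and the gelatinase Mmp2 were higher, with 1.02 (0.52 to 1.53) and 1.10 (0.54 to 1.68), and Adamts9 was lower, with 15 and 8 UMIs and -1.01 (-2.46 to 0.32). Glce in fibroblasts and Adamts9 were named after their values were seen. In myeloid cells 0 genes of the 5 lists passed 2-fold.

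Across the 10 sums of 5 classes by 2 libraries, the patterns of log2(CPM + 10) were most alike for Col4a1 and Col4a2, with a Pearson correlation of 0.999, and least alike for Nid2 and Hspg2, with 0.703. The sums share libraries and depth, so these values describe the likeness only. Of 12095 other genes, the most alike to Col4a1 were Igfbp7 (0.988), Paip2 and Unc5b, to Col4a2 Igfbp7, Unc5b and Timp3, and to Col18a1 Unc5b (0.997), Igfbp7 and Timp3. Col15a1 was nearest to Ebf1 (0.987), Gpx7 and Socs2. Nid1 was nearest to Prss23, Actn1 and Gpx7, and Lamb1 to Cavin3 (0.992), Prss23 and Zeb1. Nid2 was nearest to Epas1 (0.983), to Flt1, which was among the endothelial markers of the gate, and to Dgkh. For Lamc1 the nearest were Apbb2, Msrb3 and Cavin3, for Hspg2 Rai14, Bmpr2 and Mast4, and for Lama4 Svbp (0.954), Hes1 and Lmf2.

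By GENCODE, Col4a1 and Lamc1 each overlap 1 provisional gene model on the same strand and Hspg2 contains 1 microRNA gene. Of the antisense partners, Slc19a1 at Col18a1, Rtraf at Nid2 and the type IV pair are protein coding. All 10 members are protein coding.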

How the data were processed

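Single-cell libraries of 1 WT and 1 KO pool of small B16F10 tumours were used. The authors deposited raw UMI counts per gene and cell, made per the labels with Cell Ranger 3.1.0 on GRCm38, and Seurat 3.2.1 is also named there. The labels and the study's methods name different kit versions, so depth was taken from the counts. The deposited barcodes had at least 500 UMIs. The 10 genes, the gates and the lists were chosen with earlier results of these data known.

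The study's filter was applied, which required 200 to 5000 genes per cell and a mitochondrial share no higher than 7.5%. A host cell had at least 3 of 10 markers of its class and at least 2 times as many as of any other host class, except that a pericyte needed only as many pericyte as fibroblast markers, and a melanoma marker share of UMIs under the melanoma cells' median divided by 4. A melanoma cell had at least 4 melanoma markers, at most 2 markers of each host class and at least 2 times as many melanoma markers as of each host class. Clusters were not used and doublets were not removed. UMIs were summed per class and library as CPM, with exact Poisson, Clopper-Pearson and conditional binomial intervals at 95%. Intervals of differences between ratios were Wald intervals. For calls of at least 2-fold, genes needed 20 UMIs over both sums, and counts under 3 were set to 3. Cells were thinned to 2000 UMIs for shares. No test was possible with 1 library per genotype. Named genes were all 10 members, in each class up to 4 list genes past 2-fold with the most UMIs, and the 3 genes most alike to each member in pattern. The sets by Xist and Y-linked UMIs, within and outside the adventitial sub-gate, were formed after seeing the data, except the comparison of Xist+ cells.

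The alternatives were gates with 2 or 4 markers, a 15% mitochondrial limit, no upper gene limit, Scrublet doublets removed (129 WT and 81 KO), CPM without mitochondrial and ribosomal protein genes, free RNA subtracted, Xist+ cells alone, and TMM scaling in edgeR 4.0.16, with a 50 UMI minimum for calls. The ratio step was tested on simulated counts. Promoters came from RefSeq (GRCm38.p6) and positions from GENCODE vM21.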

Additional observations from a re-analysis of the deposited data

Results flagged for a closer look

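Members whose KO/WT interval lay wholly below 0 in fibroblasts and wholly above 0 in endothelial, myeloid or melanoma cells are listed here, with at least 20 UMIs in each class. Pericytes were left out of this search, and in them Col4a1 had 0.53 (0.13 to 0.93), with 29.2% of its KO UMIs in 1 cell. The differences between classes were given counting intervals only, since 1 library a genotype allows no test. Col4a1 was at -0.91 in fibroblasts and 0.31 in melanoma cells on the log2 scale, a difference of -1.23 (-1.45 to -1.0). Col4a2 was at -0.76 in fibroblasts and 0.31 in endothelial cells, a difference of -1.07 (-1.42 to -0.72). The endothelial interval of Col4a2 began at 0.013, a margin smaller than the TMM shift of -0.19 for endothelial ratios. A single KO endothelial cell held 18.0% of the Col4a2 UMIs of its class. With the top cell of each library left out, the endothelial level was 1421 CPM for KO cells, beside 1216 CPM for WT cells. Col18a1 was at -0.81 in fibroblasts, 0.72 in endothelial cells and 1.23 in melanoma cells. Its fibroblast ratio differed from the endothelial and melanoma ones by -1.53 (-2.14 to -0.93) and -2.04 (-2.64 to -1.44). A single KO endothelial cell held 28.6% of the Col18a1 UMIs of its class. With the top cell of each library left out, the endothelial level was 454 CPM for KO cells, beside 328 CPM for WT cells. The WT melanoma level of Col18a1, 2.40 CPM, was below the WT myeloid level of 5.58 CPM. The KO order was the opposite, with 5.62 CPM for melanoma and 2.86 CPM for myeloid cells. Lamb1 was at -0.32 in fibroblasts and 0.78 in melanoma cells, a difference of -1.10 (-1.63 to -0.57). Lamc1 was at -0.75 in fibroblasts and 0.89 in myeloid cells, where it had 57 UMIs, a difference of -1.64 (-2.46 to -0.82). For Col4a1 and Col4a2 the fibroblast direction was not that of Xist+ cells, at 0.20 and 0.27, and for Col4a2 the endothelial direction was not either, at -1.11 from 8 KO cells. The part of sex and of single mice in these values was not tested.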

How the results depend on the processing

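No paired analysis was possible because 1 library stood for each genotype. Recomputed ratios of single members lay inside the reported interval in 437 cases, left it in 9 and, where that interval excluded 0, changed direction in 4. In Xist+ cells, the summed log2 ratio was -0.50 in endothelial cells, -0.035 in fibroblasts and 0.98 in pericytes, the last from 7 WT and 3 KO cells. The 4 ratios that changed direction were Col4a1 (0.20) and Col4a2 (0.27) in fibroblasts and Col4a2 (-1.11) and Hspg2 (-0.20) in endothelial cells. Of the endothelial members whose interval included 0, Col4a1 (-0.83), Nid1 (-1.27), Lama4 (-0.40) and Lamb1 (-0.20) also went below 0 in Xist+ cells. Lamc1 (0.059) and Nid2 (0.23) stayed above 0. Among Xist+ cells the members at least 2-fold lower in KO were 3 in endothelial cells and 0 in fibroblasts. Those at least 2-fold higher were 1 in endothelial cells, 3 in pericytes and 1 in myeloid cells. Between classes of KO Xist+ cells, 1 member was at least 2-fold higher in endothelial cells than in fibroblasts and 2 the other way. TMM scaling gave an endothelial sum of 0.048 and moved the share of all endothelial genes past 2-fold from 7.25% to 11.5% lower and from 5.5% to 3.28% higher. Free RNA, estimated at 8.26% of WT and 7.93% of KO UMIs, when subtracted gave a myeloid sum of 0.43. With it subtracted, 1 myeloid member was at least 2-fold higher, against 3.45% of all genes. A 15% mitochondrial limit gave 1 myeloid member at least 2-fold lower, against 2.8% of all genes. For each of these changes the cause was not tested. The other 39 recomputed sums lay inside their intervals. With the 50 UMI minimum the shares of all genes past 2-fold were lower, at 3.39% and 2.68% (lower and higher in KO) in endothelial cells, 2.4% and 3.85% in pericytes, 4.21% and 3.33% in fibroblasts, 1.41% and 1.71% in myeloid cells and 0.5% and 2.43% in melanoma cells, with the same counts of members. In Xist+ cells, at the 20 UMI minimum, they were 2.5% and 9.85% in endothelial cells, 11.5% and 7.43% in pericytes, 11.1% and 4.98% in fibroblasts and 4.76% and 4.08% in myeloid cells. No fibroblast held an Rgs5 UMI, so the split by Rgs5 gave no value. The alternatives for the pericyte gate, the left-out cells and the split by Rgs5 were chosen after seeing the data. With 22 KO endothelial cells and 10 KO pericytes, depth limits what single members can show there.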
